A study of Mus musculus with 16 samples.

Results

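The change in protrusion enrichment under expression of the Pkp4 cUTR was measured for every RNA of the deposited table. For each RNA the mean log2 CPM of the 4 Pkp4 cUTR cell-body samples was subtracted from the mean of the 4 Pkp4 cUTR protrusion samples, and the same difference in HBB cells was then subtracted from it. The result, log2(Diff FC), is positive for an RNA that was more enriched in protrusions of Pkp4 cUTR cells than of HBB cells and negative for one that was less enriched. It was taken over all 16 samples of the series and for all 12900 RNAs, whether or not they are found in protrusions.

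The cells were NIH/3T3, an established mouse fibroblast line, with a stably integrated lentiviral construct that carries the human β-globin coding region. In HBB cells this region is followed by the 3′UTR of human β-globin itself, and in Pkp4 cUTR cells by the 3′UTR of mouse Pkp4, which serves as a competitor for the machinery that binds it. Both lines received 1 μg/ml doxycycline for 72 h to switch on the construct, so the control also expresses a foreign RNA. Serum-starved cells stood on a filter with 3.0 μm pores for 2 h. Lysophosphatidic acid was then placed below for 1 h, and the cells extended protrusions towards it. Fixation was light and lasted 10 min, with paraformaldehyde at 0.3%. Protrusions (Ps) or cell bodies (CB) were then scraped off. The paper also describes smaller, filopodia-like protrusions from narrower pores, with a different pattern of enriched RNAs, and these were not measured here. There were 4 samples each of HBB Ps, HBB CB, Pkp4 cUTR Ps and Pkp4 cUTR CB. The lines were selected with a drug after transduction, and whether either was grown from a single clone is not given in the sources used here. With 1 line per construct, the effect of the UTR and any other difference between the lines cannot be told apart.

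Migrating fibroblasts keep some mRNAs in their protrusions, where they can be translated close to the membrane and the cytoskeleton. One group of these RNAs depends on the tumour suppressor protein APC (adenomatous polyposis coli) and on a stabilised, detyrosinated set of microtubules for their anchoring. Signals in the 3′UTR of such RNAs, among them Pkp4 and Rab13, are known to be sufficient to bring an unrelated RNA into protrusions. Other RNAs reach protrusions by APC-independent routes, and RNAs of secreted and membrane proteins are translated at the endoplasmic reticulum around the nucleus. Log2(Diff FC) over the whole table asks how far a competitor UTR shifted the distribution of any of these classes. A sample is a pool of many cells, so more RNA per protrusion and more protrusions that hold it cannot be told apart.

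Between 18660287 and 31260831 reads were counted per sample. Fibroblast markers were strong, with a summed level of 1.93e+04 to 3.15e+04 CPM for the 8 of 9 in the table (Thy1 was not), while the endothelial and immune markers in the table summed to at most 1.91 and 6.69 CPM. Of the epithelial markers, Krt14 was present at 7.16 to 8.08 log2 CPM and Cdh1 at 1.67 to 2.75 log2 CPM, and Epcam and Krt5 were not in the table. Krt14 was higher in all Pkp4 cUTR samples than in any HBB sample, and its log2(Diff FC) was 0.09 (unadjusted p = 0.485, limma). The muscle marker Des was at 4.36 to 6.02 log2 CPM, without Myod1 or Myog in the table. The part of these markers in the results was not tested. Replicate 4 of both cell-body groups stood apart: on the first principal component, which held 48.6% of the variance, it scored −23.4 in HBB cells and −0.972 in Pkp4 cUTR cells, towards the protrusion samples, against −39.8 to −47.5 and −27.7 to −42.2 for the other cell bodies. Samples with the same replicate number deviated together across the lines, within protrusions and within cell bodies, so counts from a fit with this number as a block in each fraction are given beside those without it.

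Pkp4 is the RNA whose UTR was overexpressed and its level checks the labels. The protein, plakophilin 4, is an armadillo-repeat protein of cell junctions, and its gene lies on chromosome 2 of mm10 from 59160850 to 59355208 on the plus strand. In HBB cells Pkp4 was at 5.87, 5.76, 6.35 and 6.05 log2 CPM in Ps and at 4.46, 4.53, 4.45 and 4.43 log2 CPM in CB. In Pkp4 cUTR cells it was at 9.80, 9.14, 8.96 and 9.43 log2 CPM in Ps and at 8.82, 9.24, 9.32 and 8.26 log2 CPM in CB. All 8 Pkp4 cUTR samples lay above all 8 HBB samples, as the labels say, with a mean 10-fold higher in Ps and 21.7-fold higher in CB. The reads on this gene come from both the endogenous RNA and the UTR of the construct and these cannot be separated here. Within HBB cells every Ps value was above every CB value, while the ranges of the fractions overlapped in Pkp4 cUTR cells. Enrichment was thus 1.54 on the log2 scale in HBB cells and 0.42 in Pkp4 cUTR cells, a log2(Diff FC) of −1.12 (SE 0.28, 95% interval −1.71 to −0.52, unadjusted p = 0.000875, limma), and it was the largest by size of the 10154 RNAs whose mean log2 CPM exceeded 1.

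No RNA had a Benjamini-Hochberg adjusted p below the threshold of 0.05 for log2(Diff FC) in limma (0%), and the smallest adjusted p was 0.9997. At an unadjusted p under 0.05 there were 300 RNAs, or 2.33% of the 12900, fewer than the 645 (5%) that p-values spread evenly between 0 and 1 would give. Of these 176 had a higher value in Pkp4 cUTR cells (1.36% of all RNAs) and 124 a lower one (0.961%), and scaling each sample to its total reads instead of the authors' scaled library size changed that split to 97 and 137. With the replicate number as a block in each fraction, 395 RNAs (3.06%) were higher and 281 (2.18%) lower at an unadjusted p under 0.05, and 263 of the 300 were among them. Together these were 676 RNAs, close to the 645 that evenly spread p-values would give. In that fit a single RNA, Eml4, passed the adjusted threshold (adjusted p = 0.0389, limma). The RNAs named from here on are those that passed the unadjusted threshold, unless a p is given that did not.

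The change was small over the table as a whole. The median log2(Diff FC) of all RNAs was 0.005, with quartiles of −0.09 and 0.10, and the median within replicate numbers 1 to 4 was 0.02, 0.00, 0.04 and −0.03. For the 10154 better measured RNAs, those whose mean log2 CPM exceeded 1, the 95% interval extended by a median of 0.31 on the log2 scale to either side. That interval lay wholly within a 2-fold change in either direction for 9910 of them (97.6%), and within a 1.5-fold change for 8316 (81.9%). Over all 12900 RNAs these numbers were 10658 (82.6%) and 8342 (64.7%), since the intervals of RNAs with few reads are wide. A shift of enrichment beyond 2-fold was therefore outside the interval for nearly all of the better measured RNAs, while a change of 1.5-fold still lay within it for many.

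The lines did differ in RNA level, and the RNAs called in both fractions differed in the same direction in both. Between the lines, 923 RNAs (7.16%) differed in Ps and 1157 (8.97%) in CB at an adjusted p under 0.05 in limma, numbers that were 2338 and 2765 with the replicate block in each fraction. These sets shared 618 RNAs, 67.0% of the Ps set and 53.4% of the CB set, and all 618 differed in the same direction in both fractions, 214 higher and 404 lower in Pkp4 cUTR cells. log2(Diff FC) is the Ps difference less the CB difference. Its median size among the 618 was 0.07 against 0.10 among all RNAs, and 14 of them (2.27%) passed its unadjusted threshold against 2.33% of all RNAs. The comparison is not like for like. The 618 were chosen by a difference in both fractions, and all RNAs include those with few reads. Plotted against each other, the Ps and CB differences form a diagonal band with the called RNAs at its edges.

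**Figure D1:**
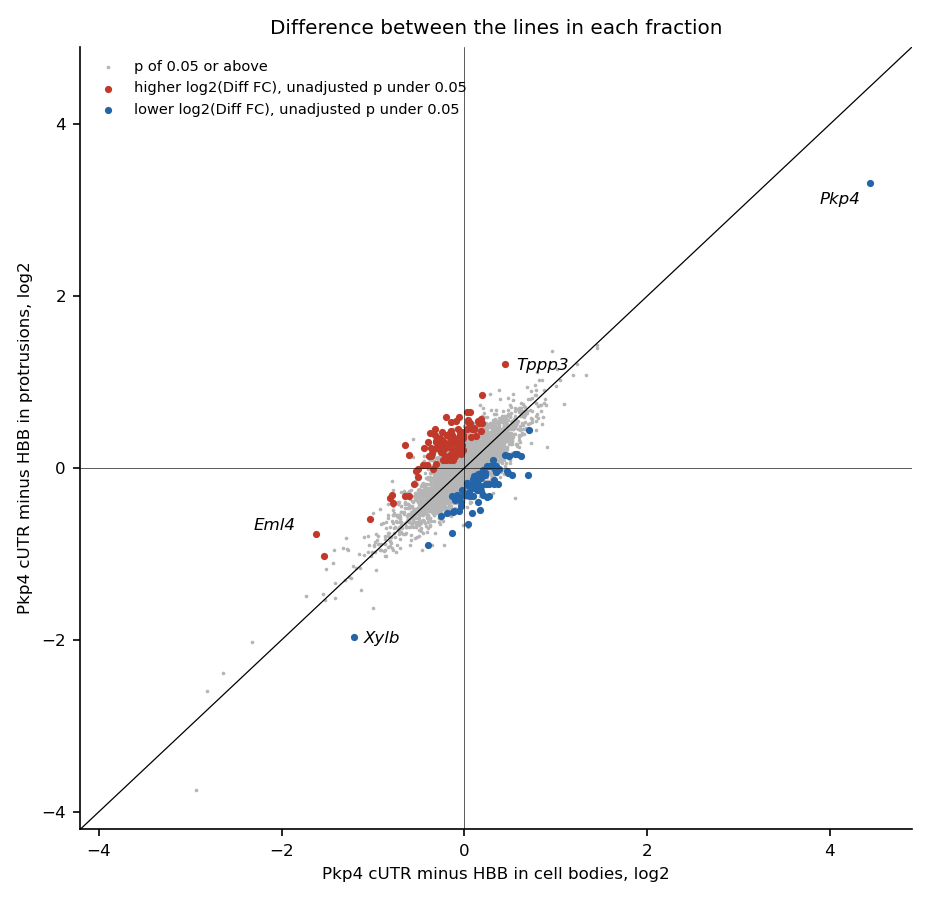
Each point is an RNA whose mean log2 CPM exceeded 1. The Pkp4 cUTR minus HBB difference is on the x axis for cell bodies and on the y axis for protrusions, both in log2 units. Log2(Diff FC) is the vertical distance from the diagonal. The 122 RNAs above it (higher) and the 85 below it (lower) at an unadjusted p under 0.05 are coloured. Pkp4 lies at the top right with 4.44 in CB and 3.32 in Ps.

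Both fractions contributed to the called changes. Of the 176 RNAs with a higher log2(Diff FC), 128 were above their HBB level in Ps and below it in CB, 22 were above in both and 26 below in both, with a median of 0.30 in Ps and −0.23 in CB. The CB part was the larger in 67 of them. Among the 124 RNAs with a lower value, 82 were below the HBB level in Ps and above it in CB, 14 were above and 28 below in both, and the medians were −0.26 in Ps and 0.17 in CB. Here the CB part was the larger in 51. The median log2(Diff FC) was 0.53 for the higher RNAs, with a range of 0.21 to 1.99, and −0.42 for the lower ones, with a range of −1.97 to −0.19. These sizes follow from the threshold that chose the RNAs, as does their agreement across replicate numbers: 134 of the 176 and 97 of the 124 had the same sign in all 4 numbers, against 1641 of all 12900 (12.7%).

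For each direction, the 12 better measured RNAs with the smallest p were taken up singly. On the higher side the first was Eml4, on chromosome 17 from 83350931 to 83480361. EML4 binds and stabilises microtubules. In HBB cells Eml4 was at 4.14, 4.42, 3.89 and 4.15 log2 CPM in Ps and at 4.85, 4.92, 4.60 and 4.33 log2 CPM in CB. In Pkp4 cUTR cells its level was 3.34, 3.65, 3.31 and 3.25 log2 CPM in Ps and 3.23, 3.05, 2.89 and 3.05 log2 CPM in CB. Levels were lower in the Pkp4 cUTR line in both fractions without overlap, with a difference of −0.77 in Ps and −1.62 in CB on the log2 scale. The order of the fractions turned: enrichment in Ps was −0.53 in HBB cells, where the ranges of Ps and CB overlapped, and 0.32 in Pkp4 cUTR cells, where every Ps value was above every CB value. Its log2(Diff FC) of 0.85 (SE 0.20, 95% interval 0.44 to 1.27, unadjusted p = 0.000385, limma) thus came from a loss that was larger in CB than in Ps. Within replicate numbers 1 to 4 the value was 0.82, 1.09, 1.12 and 0.38, and with the replicate block the adjusted p was 0.0389, or 0.0173 without replicate 4 of every group.

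A pair of RNAs for proteins that bind other RNAs stood near the top of the same order. Larp7, whose protein holds the 7SK small nuclear RNA, was at 2.24, 2.31, 2.22 and 2.48 log2 CPM in HBB Ps and at 2.85, 2.75, 2.98 and 2.82 log2 CPM in Pkp4 cUTR Ps, with no overlap. In CB it was at 2.03, 1.69, 1.89 and 1.77 log2 CPM in HBB cells and at 1.43, 1.53, 1.81 and 2.08 log2 CPM in Pkp4 cUTR cells, ranges that overlapped, and its log2(Diff FC) was 0.69 (SE 0.19, unadjusted p = 0.00157, limma). The difference arose in Ps. Ssb, the gene of the La protein that binds the 3′ ends of new RNA polymerase III transcripts, was at 3.52, 3.86, 3.33 and 3.71 log2 CPM in HBB Ps and 3.76, 4.10, 3.95 and 3.90 log2 CPM in Pkp4 cUTR Ps. It was at 2.96, 2.53, 2.72 and 2.81 log2 CPM in HBB CB and 2.42, 2.24, 2.41 and 2.75 log2 CPM in Pkp4 cUTR CB, and each of these ranges overlapped between the lines. Differences between the lines of 0.31 in Ps and −0.31 in CB, neither of which was called on its own (adjusted p = 0.131 and 0.185, limma), added up to a log2(Diff FC) of 0.62 (SE 0.18, unadjusted p = 0.00315, limma).

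Protein turnover was represented by Usp15 and Cops2. Usp15, on chromosome 10 from 123105006 to 123196995, encodes a deubiquitinating enzyme, and Cops2, on chromosome 2 from 125830304 to 125859139, encodes a subunit of the COP9 signalosome, which removes the ubiquitin-like protein NEDD8 from cullins. Usp15 was at 3.09, 3.14, 3.16 and 3.01 log2 CPM in HBB Ps and 3.36, 3.58, 3.61 and 3.39 log2 CPM in Pkp4 cUTR Ps. In CB it was at 2.37, 2.12, 2.08 and 1.86 log2 CPM in HBB cells and at 2.15, 1.78, 1.78 and 2.00 log2 CPM in Pkp4 cUTR cells. Only the Ps ranges were apart, and log2(Diff FC) was 0.57 (SE 0.17, unadjusted p = 0.00262, limma). Cops2 was at 4.92, 4.91, 4.95 and 4.98 log2 CPM in HBB Ps and 5.01, 5.31, 5.17 and 5.00 log2 CPM in Pkp4 cUTR Ps. Its CB values were 3.67, 3.37, 3.54 and 3.44 log2 CPM in HBB cells and 3.17, 2.81, 3.15 and 3.51 log2 CPM in Pkp4 cUTR cells. Again the lines were apart in Ps and overlapped in CB, although the mean difference was larger in CB (−0.35) than in Ps (0.18). Replicate 4 differed from the others: the log2(Diff FC) of 0.54 (SE 0.16, unadjusted p = 0.00277, limma) was made of 0.59, 0.96 and 0.62 in numbers 1 to 3 and −0.05 in number 4.

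Centrosome RNAs followed. Pcm1 encodes the scaffold of centriolar satellites and Nin encodes ninein, which anchors microtubules at the centrosome. Pcm1 was at 2.20 to 2.65 log2 CPM in HBB Ps and 2.62 to 3.20 log2 CPM in Pkp4 cUTR Ps, and at 1.33 to 2.04 and 1.15 to 1.68 log2 CPM in CB. These ranges overlapped in both fractions, and its log2(Diff FC) was 0.78 (SE 0.24, unadjusted p = 0.00418, limma). Nin ran from 1.67 to 2.09 log2 CPM in HBB Ps and from 2.13 to 2.41 log2 CPM in Pkp4 cUTR Ps, ranges that did not overlap, with a log2(Diff FC) of 0.66 (SE 0.20, unadjusted p = 0.00475, limma). The remaining higher RNAs were Tlk2, a kinase of chromatin assembly (0.45, SE 0.14), Fam129c (0.59, SE 0.18), Dock11, an exchange factor for Cdc42 (0.78, SE 0.25), Nxf3, an RNA export factor (0.52, SE 0.17), and Luc7l3, a splicing factor (0.70, SE 0.22). Across the 12, replicate number 4 gave the lowest value in 10, between −0.05 and 0.38, and Fam129c and Nxf3, at 0.91 and 0.70 in that number, were the exceptions.

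On the lower side, Xylb came next after Pkp4. It lies on chromosome 9 from 119357381 to 119393797 and encodes xylulokinase, an enzyme of pentose sugar metabolism. Xylb was at 3.12, 3.28, 3.33 and 3.06 log2 CPM in HBB Ps and 3.13, 3.01, 3.14 and 2.93 log2 CPM in HBB CB, an even distribution. In Pkp4 cUTR cells its level was 1.15, 0.84, 1.59 and 1.32 log2 CPM in Ps and 1.71, 1.76, 2.12 and 1.77 log2 CPM in CB. Like Eml4 it was lower in the Pkp4 cUTR line in both fractions without overlap, here with a larger difference in Ps (−1.96) than in CB (−1.21, log2 scale), and its log2(Diff FC) was −0.75 (SE 0.19, 95% interval −1.15 to −0.34, unadjusted p = 0.00105, limma). The 4 replicate numbers gave −0.56, −1.19, −0.72 and −0.58.

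Ndfip2 and Eef1e1 had changes of a smaller size that repeated closely. Ndfip2, an activator of NEDD4-family ubiquitin ligases, was at 4.19, 4.32, 4.06 and 4.07 log2 CPM in HBB Ps and 3.91, 3.84, 3.64 and 3.98 log2 CPM in Pkp4 cUTR Ps. Its CB values of 4.32, 4.41, 4.33 and 4.20 log2 CPM in HBB cells overlapped with the 4.46, 4.46, 4.31 and 4.44 log2 CPM in Pkp4 cUTR cells. Only the Ps ranges of Ndfip2 were apart. Its log2(Diff FC) was −0.42 (SE 0.12, unadjusted p = 0.00262, limma), with −0.43, −0.53, −0.39 and −0.34 in the replicate numbers. Eef1e1, a scaffold subunit of the multi-tRNA synthetase complex, was at 4.02, 4.22, 4.19 and 4.11 log2 CPM in HBB Ps and 3.88, 3.85, 3.96 and 3.98 log2 CPM in Pkp4 cUTR Ps. In CB it was at 3.57, 3.53, 3.63 and 3.79 log2 CPM in HBB cells and 3.81, 3.75, 3.72 and 3.97 log2 CPM in Pkp4 cUTR cells. For Eef1e1 too the lines were apart in Ps and overlapped in CB. Its enrichment in Ps was 0.51 in HBB cells and 0.11 in Pkp4 cUTR cells on the log2 scale, a log2(Diff FC) of −0.40 (SE 0.12, unadjusted p = 0.00278, limma).

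**Figure D2:**
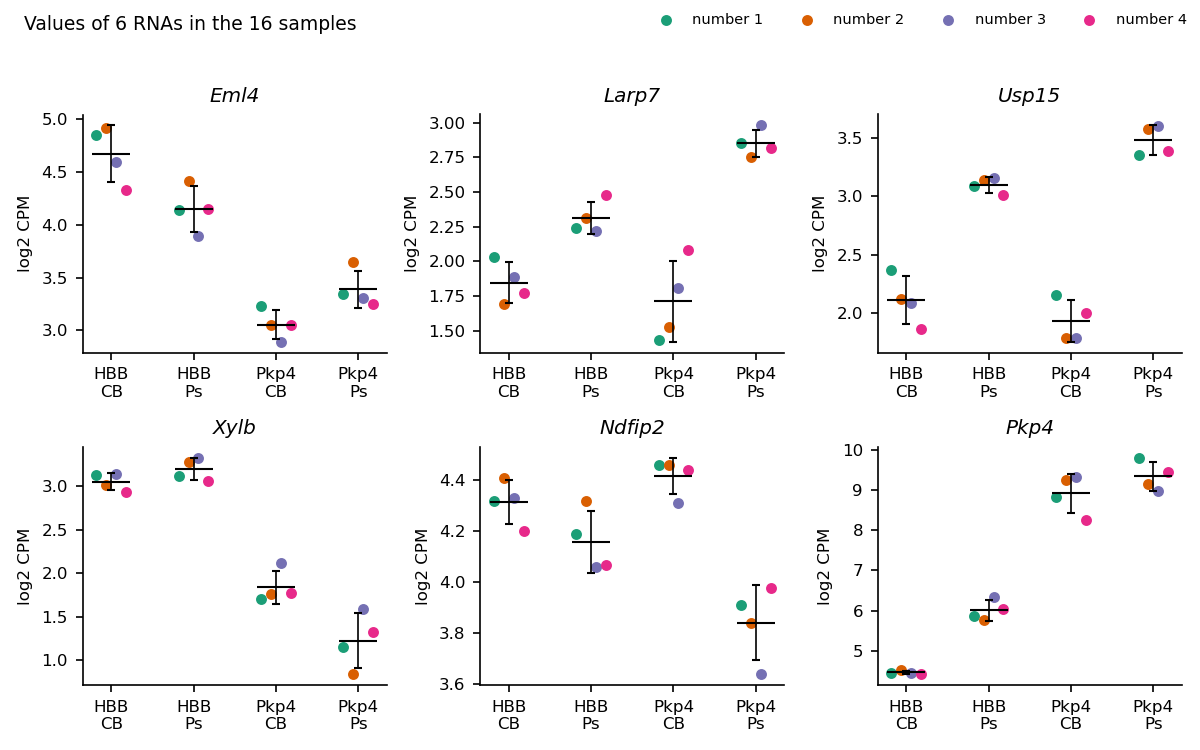
Level (log2 CPM) of Eml4, Larp7, Usp15, Xylb, Ndfip2 and Pkp4 in each of the 16 samples, with points coloured by replicate number and a line at each group mean. Eml4 and Xylb are lower in the Pkp4 cUTR line in both fractions, Larp7, Usp15 and Ndfip2 are apart between the lines in Ps alone, and Pkp4 is higher in every Pkp4 cUTR sample.

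The other lower RNAs included several that were enriched in protrusions in both lines. Klhl12, a substrate adaptor of cullin 3, was enriched by 1.61 in HBB cells and 1.09 in Pkp4 cUTR cells on the log2 scale, a log2(Diff FC) of −0.52 (SE 0.17, unadjusted p = 0.00596, limma). Wnk1, a kinase that governs ion transport, was at 7.53, 7.59, 7.75 and 7.56 log2 CPM in HBB Ps and 7.50, 7.43, 7.33 and 7.45 log2 CPM in Pkp4 cUTR Ps, without overlap, and its enrichment of 1.28 and 0.97 gave −0.30 (SE 0.11, unadjusted p = 0.012, limma). Smaller enrichments fell as well in this test for Shc2, an adaptor of receptor tyrosine kinases (0.86 to 0.48), for Rfk, which makes flavin mononucleotide (0.77 to 0.48), for Dcaf5, a substrate receptor of cullin 4 ligases (0.75 to 0.37), and for Dctn6, a dynactin subunit (0.54 to 0.24). Rin2, an exchange factor for Rab5, was depleted from protrusions in both lines, at −0.23 and −0.63. Fam60a, a subunit of a histone deacetylase complex, differed between the lines mainly in CB, by 0.70 against −0.08 in Ps. Each of the 24 RNAs, the 12 higher and the 12 lower, kept an unadjusted p under 0.05 (limma) when any 1 of the 16 samples was left out. The 24 were chosen for the smallest p in these same samples, so this is not an independent check. Of all 300 called RNAs, 95 stayed called in all 16 such fits.

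**Figure D3:**
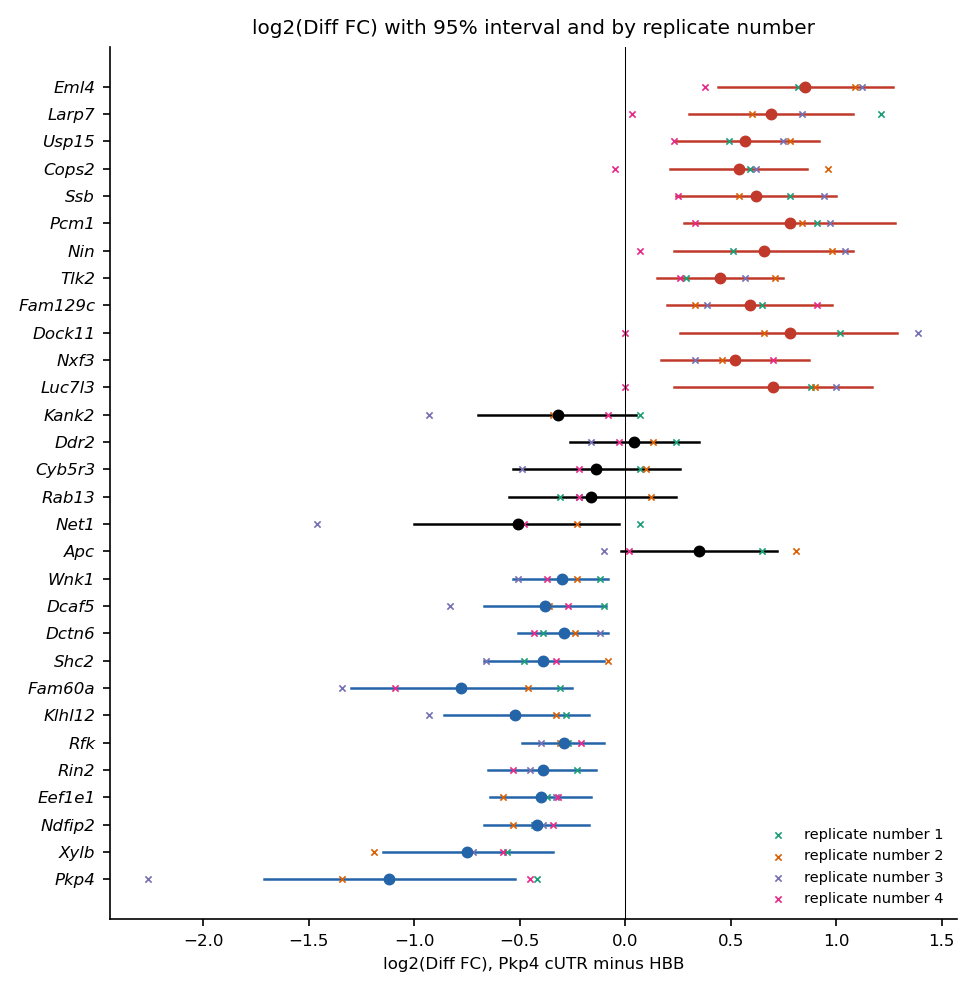
Log2(Diff FC), Pkp4 cUTR minus HBB, of the 12 higher RNAs (top), 6 reference RNAs (black) and the 12 lower RNAs (bottom), as a point with its 95% interval, and as a cross for each replicate number. The intervals of the 24 chosen RNAs lie on 1 side of 0 because they were chosen by p, and number 4 gives the lowest cross for 10 of the 12 higher RNAs.

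Established protrusion RNAs were next compared. Kank2, an adaptor between focal adhesions and the cortex, had an enrichment of 2.13 in HBB cells and 1.81 in Pkp4 cUTR cells, a log2(Diff FC) of −0.32 (95% interval −0.70 to 0.05, unadjusted p = 0.0854, limma, and 0.0279 with the replicate block). Net1, a guanine nucleotide exchange factor, had 2.31 and 1.79, or −0.51 (SE 0.23, unadjusted p = 0.0374, limma), and replicate number 3, at −1.46, stood against 0.07, −0.23 and −0.48. Its call was lost on leaving out any of 8 of the 16 samples. Rab13, a GTPase of membrane traffic, had 2.36 and 2.20, or −0.16 (95% interval −0.55 to 0.24, unadjusted p = 0.424, limma). Cyb5r3, an electron carrier of the endoplasmic reticulum and mitochondria whose RNA had the highest mean level of these at 10.27 log2 CPM, had 3.14 and 3.01, or −0.14 (95% interval −0.53 to 0.26, unadjusted p = 0.482, limma). For Rab13 and Cyb5r3 the intervals leave room for no change and for a decrease of about 0.5. Ddr2, a collagen receptor, was at 0.98 and 1.02, or 0.04 (95% interval −0.26 to 0.35, unadjusted p = 0.762, limma), and Apc itself was at 1.07 and 1.42, or 0.35 (95% interval −0.02 to 0.72, unadjusted p = 0.0634, limma).

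The study's own list of APC-dependent RNAs, chosen by it from cells depleted of APC and not from these samples, had the lowest median among the large lists, a pattern already known when the list was taken up here. Of 91 names 88 were in the table. Their median was −0.19 on the log2(Diff FC) scale, between quartiles of −0.34 and −0.04. As lower 12 passed the unadjusted threshold and 0 as higher (17 and 0 with the replicate block), against 0.961% lower over all RNAs (2.18% with the block). The 12 were Pkp4, Wnk1, Kctd10, mt-Co1, Tpmt, Zbtb12, Rassf3, Gm7729, Net1, Gdf11, Dynll2 and E130208F15Rik, and 10 of them had a mean log2 CPM above 1. Reads on Pkp4 include the UTR of the construct, so its value is not that of the endogenous RNA alone. Kctd10, a cullin 3 adaptor, had −0.39 (SE 0.15), and Dynll2, a light chain shared by dynein and myosin V, had −0.33 (SE 0.15). Both were lower in Ps (−0.51 and −0.52) and less different in CB (−0.12 and −0.19). Zbtb12, in contrast, was −0.18 in Ps and 0.27 in CB, for a log2(Diff FC) of −0.45 (SE 0.18). The median of the list was uneven over the replicate numbers, at −0.02, −0.04, −0.44 and −0.33. It was −0.15 without replicate 4 of every group, with 9 lower RNAs, against 145 lower among all 12900 RNAs in that fit.

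Beyond these, the average of the enrichment in both lines was used to divide all RNAs into 10 equal classes. Noise in this average is unrelated to noise in log2(Diff FC) only where both lines vary alike between samples. Some pairs of Pkp4 cUTR replicates agreed less closely than any pair of HBB replicates, so the classes at the ends can share noise with log2(Diff FC). The most CB-enriched class, with a median average log2(FC) of −0.8875, had 0.07 as its median log2(Diff FC) and held 26 higher and 6 lower RNAs (79 and 11 with the replicate block). The most Ps-enriched class, with a median average of 0.9988, had 0.00 as its median log2(Diff FC) but the highest share of called RNAs. That share was 4.5% against 2.33% of all RNAs, with 39 higher and 19 lower. Medians of the 8 classes between lay from −0.02 to 0.03. In the most Ps-enriched class the replicate numbers disagreed, with −0.01, 0.22, 0.15 and −0.31. Without replicate 4 of every group the median of this class was 0.11, with 107 higher and 15 lower of its 1290 RNAs. That fit called 327 higher and 145 lower among all 12900 RNAs, against 176 and 124 with all samples. No class of enrichment had a median below −0.02.

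Functions and families were described with 45 lists that together held 4597 RNAs (35.6%), without a test of any list. Their median log2(Diff FC) ran from −0.29 to 0.09, lay within 0.05 of 0 for 40 of them and within 0.1 for 43, and was smaller than its own SD over the 4 replicate numbers for 42. This SD describes single numbers and is not the standard error of a median over all 16 samples. In 15 lists no RNA passed the unadjusted threshold, and the other lists held from 1 to 20. The lists whose median was beyond their SD over the replicate numbers were the tubulins and microtubule-associated proteins (0.03), the Rab GTPases (−0.06) and the COP9 signalosome (−0.03).

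**Figure D4:**
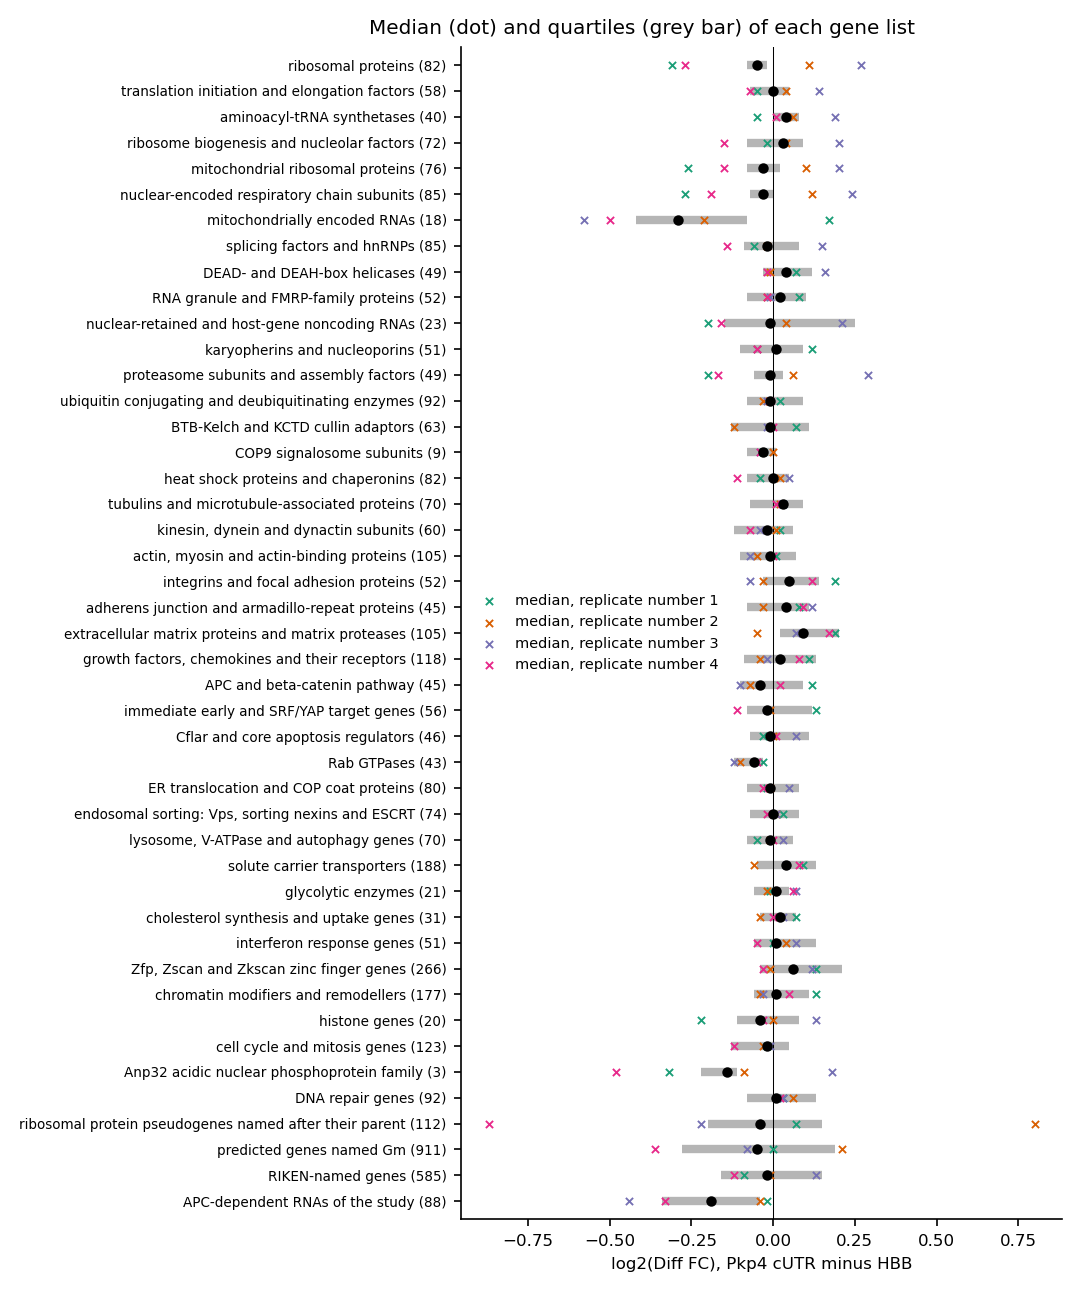
Median (dot) and quartiles (grey bar) of log2(Diff FC), Pkp4 cUTR minus HBB, for the lists of functions and families and the study's APC-dependent RNAs, with the number of RNAs in brackets and a cross for the median within each replicate number. Medians sit close to 0 except for the mitochondrially encoded RNAs (−0.29), the APC-dependent RNAs (−0.19) and the Anp32 family (−0.14), and the crosses of ribosomal protein pseudogenes spread from −0.87 to 0.80.

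Among cytoskeletal genes the microtubule list had 70 RNAs, of which 4 were higher and 0 lower, 5.71% called against 2.33% of all RNAs. In the fit with the replicate block 5 were higher and Map4 was lower, against 3.06% and 2.18% of all RNAs. Beside Eml4 these were Katnal2, a katanin-like protein (0.65, SE 0.23), Tppp3, a promoter of tubulin polymerisation (0.76, SE 0.36), and Camsap3, which binds microtubule minus ends and was at a mean of 0.65 log2 CPM (0.62, SE 0.26). The median of 0.03 was 0.03, 0.02, 0.03 and 0.01 in the replicate numbers. Motor proteins had calls in both directions: of 60 kinesin, dynein and dynactin RNAs, Kif3a (0.50, SE 0.20) and Hook3 (0.36, SE 0.16) were higher, while Dctn6 (−0.29, SE 0.10), Dync1li2 (−0.33, SE 0.14) and Dynll2 were lower (4 higher and 4 lower with the replicate block). KIF3A is the kinesin-II motor that carries APC along microtubules, and its cargo adaptor Kifap3 was higher too (0.34, SE 0.16). In the list of 45 genes of the APC and β-catenin pathway these were the 2 higher RNAs, Wnk1 was the lower one, and the median was −0.04. Of this list 3 were higher and 4 lower with the replicate block. Among 105 actin and myosin genes Cfl2, the muscle-type cofilin (−0.22, SE 0.09), and Actr3b, an Arp3 paralogue (−0.41, SE 0.19), were lower and 0 higher. Actr3b was not called with the replicate block (unadjusted p = 0.0714, limma), where 1 RNA, Fmnl3, was higher and 3 were lower.

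RNAs of matrix proteins are mostly translated at the endoplasmic reticulum and were for the most part depleted from protrusions. The adhesion lists are more mixed. Their median enrichment in HBB cells was −0.27 for integrins and focal adhesion proteins and −0.33 for adherens junction and armadillo-repeat proteins, while Pkp4 was enriched. Of 105 matrix genes, 84 (80%) had a positive log2(Diff FC), against 51.6% of all RNAs. The most CB-enriched of the classes above, which has a like level of depletion, had 69% positive and a median of 0.07. The median of the matrix list was 0.09, with 0.19, −0.05, 0.07 and 0.17 in the replicate numbers. Yet 1 passed the threshold, Vcan, the large proteoglycan versican (0.38, SE 0.15, unadjusted p = 0.0192, limma), or 0.952% of the list against 2.33% of all RNAs. With the replicate block 9 were higher and 0 lower, against 3.06% and 2.18% of all RNAs: Vcan, the collagens Col18a1, Col11a2, Col8a1, Col9a3, Col5a3 and Col16a1, Adam17 and Thbs3. Enrichment in this list was −0.86 in HBB cells and −0.70 in Pkp4 cUTR cells (medians), and the median difference in level between the lines was −0.13 in Ps and −0.21 in CB. Of 52 integrin and focal adhesion RNAs Itgb7 was higher (0.30, SE 0.10), with 5 higher and 1 lower under the replicate block, and of 45 adherens junction and armadillo RNAs only Pkp4 was called.

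RNAs of the translation machinery, which are enriched in protrusions, had values close to 0. Calls here stand against 2.33% of all RNAs, or 3.06% higher and 2.18% lower with the replicate block. The 82 r-protein RNAs had a median enrichment of 1.11 in HBB cells and 1.04 in Pkp4 cUTR cells, a median log2(Diff FC) of −0.05, and no called member in limma with or without the replicate block. Their values ranged from −0.28 to 0.04. The median went from −0.31 in replicate number 1 to 0.11, 0.27 and −0.27 in numbers 2 to 4, and it turned to 0.03 without replicate 4 of every group. The same order of signs, negative in numbers 1 and 4 and positive in 2 and 3, was found for 76 mitochondrial r-protein RNAs (median −0.03), 85 RNAs of nuclear-encoded respiratory chain subunits (−0.03) and 49 proteasome RNAs (−0.01), in none of which an RNA was called. Atp5s of the respiratory list was lower and Psme4 of the proteasome list was higher with the replicate block. Of 58 initiation and elongation factors Eif2s2, the β subunit of eIF2, was higher (0.36, SE 0.16), and Eef1e1 was lower (2 higher and 2 lower with the replicate block).

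The 18 mitochondrially encoded RNAs had the lowest median of any list, −0.29, and 4 were positive. Mt-Co1, subunit 1 of cytochrome c oxidase and at a mean of 13.09 log2 CPM among the most abundant RNAs measured, was the one called, with a log2(Diff FC) of −0.68 for mt-Co1 (SE 0.27, unadjusted p = 0.0216, limma). The difference of mt-Co1 lay in Ps (−0.65) and not in CB (0.04). With the replicate block mt-Nd1 (−0.41), mt-Nd2 (−0.48) and mt-Rnr1 (−0.32) were called as well. The share of the list called without the block was 5.56%, against 2.33% of all RNAs. With it 3.06% of all RNAs were higher and 2.18% lower. The median over the list was 0.17 in replicate number 1 and −0.21, −0.58 and −0.50 in the others, and without replicate 4 of both CB groups it was −0.11.

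Genes of RNA handling and protein folding were covered by several lists, whose calls stand against 1.36% higher and 0.961% lower among all RNAs, or 3.06% and 2.18% with the replicate block. In the list of 52 RNA granule and FMRP-family genes Larp7, Larp4 (0.49, SE 0.21) and Larp4b (0.46, SE 0.22), all of the La-related family, were higher and none was lower, and with the replicate block 8 were higher and 2 lower. Larp4 binds poly(A) tails and promotes mRNA stability. The median of this list was 0.02. Of 49 DEAD- and DEAH-box helicases Ddx10 (0.83, SE 0.27) and Ddx52 (0.30, SE 0.14), both factors of ribosome assembly, were higher and 0 lower (5 and 0 with the replicate block), while 72 other ribosome biogenesis RNAs had no call. Ddx10 was at a mean log2 CPM below 1. Of 82 heat shock and chaperonin RNAs 3 were higher and 0 lower, Hsp90aa1 (0.47, SE 0.18) and Hsp90b1 (0.44, SE 0.19), the inducible cytosolic and the endoplasmic reticulum form of HSP90, and Hspa4l (0.45, SE 0.19), and with the replicate block 4 were higher and 0 lower. The 85 splicing and hnRNP RNAs had no call, with Hnrnpa1 at −0.22 (unadjusted p = 0.0508, limma) and Rbm39 at 0.36 (unadjusted p = 0.0524, limma) as the nearest. The block gave 4 higher and 3 lower, among them Rbm39 (unadjusted p = 0.0195, limma) and Hnrnpa1 (unadjusted p = 0.0182, limma). Malat1, a noncoding RNA kept in the nucleus and a marker of cell bodies, had a log2(Diff FC) of 0.58 (SE 0.29, unadjusted p = 0.0576, limma, and 0.0023 with the replicate block), made of 0.14 in Ps and −0.44 in CB.

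Cullin adaptors, the substrate receptors of cullin ubiquitin ligases, had calls in both directions. The share called was 7.94% in the BTB-Kelch and KCTD list and 2.17% among ubiquitin enzymes, against 2.33% of all RNAs. With the replicate block 3.06% of all RNAs were higher and 2.18% lower. Of 63 BTB-Kelch and KCTD genes Klhl12, Kctd10, Klhl10 and Kctd6 were lower and Cul3, the cullin they bind, was higher (0.35, SE 0.14), with a median of −0.01. The counts were also 1 higher and 4 lower with the replicate block, with Kctd20 in place of Klhl10, and 5 higher and 2 lower without replicate 4 of every group. Over all 12900 RNAs that last fit gave 327 higher and 145 lower. Klhl10 (−1.47, SE 0.66) was at a mean of −1.76 log2 CPM and is poorly measured. Of 92 ubiquitin enzymes Usp15 was higher and Ube2e2 lower (−0.21, SE 0.10), and with the replicate block 2 were higher and 5 lower. Within COP9, Cops2 stood alone, since the other 8 subunits lay between −0.12 (Cops3) and 0.02 (Cops6) and the median of the 9 was −0.03.

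Membrane traffic was close to neutral. The share called ran from 0% to 2.13% in its lists, below the 2.33% of all RNAs. With the replicate block 3.06% of all RNAs were higher and 2.18% lower. Of 43 Rab RNAs 8 (18.6%) had a positive log2(Diff FC), against 51.6% of all RNAs. The median of −0.06 was −0.03, −0.10, −0.12 and −0.05 in the replicate numbers, yet no Rab RNA was called. Rab9, which returns receptors from late endosomes to the Golgi, came nearest (−0.29, unadjusted p = 0.084, limma, and 0.0374 with the replicate block). This median stayed between −0.09 and −0.05 under every scaling, filter and weighting tried and without replicate 4. Of 80 translocation and coat RNAs Arf4 was lower (−0.23, SE 0.10), of 70 lysosome and autophagy RNAs Atg4c was lower (−0.54, SE 0.25), and 74 endosomal sorting RNAs had no call. These 3 lists had, with the replicate block, 3 higher and 5 lower, 0 and 2, and 1 and 0. Among 188 solute carriers Slc11a1 was higher (0.75, SE 0.26) and Slc30a3 (−0.79, SE 0.29), Slc35a1 (−0.31, SE 0.15) and Slc25a32 (−0.40, SE 0.19) were lower, and with the replicate block 5 were higher and 3 lower. Slc11a1 and Slc30a3 were at a mean log2 CPM below 1 and are poorly measured.

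Signalling, survival and cell cycle lists held scattered calls. The share called was 2.54% for growth factors and receptors, 1.79% for immediate early and SRF/YAP targets, 4.35% for apoptosis regulators and 1.63% for cell cycle RNAs. Over all RNAs it was 2.33%, and with the replicate block 3.06% were higher and 2.18% lower. The growth factor and receptor list had 118 RNAs, of which Met, the receptor of hepatocyte growth factor (0.39, SE 0.15), and Fgf7 (0.38, SE 0.17) were higher and Gdf11 was lower (−0.44, SE 0.20), with 7 higher and 3 lower under the replicate block. Met was called without any 1 of the 16 samples, Fgf7 in 8 of the 16 such fits. Wwtr1, which encodes the YAP partner TAZ, was lower (−0.22, SE 0.10) among 56 immediate early and SRF/YAP target genes (2 higher and 4 lower with the replicate block). Of 46 apoptosis regulators Cflar (−0.31, SE 0.12), an inhibitor of caspase 8 activation, and Bcl2l2 (−0.35, SE 0.15), a survival factor of the BCL2 family, were lower, and with the replicate block Tnfrsf1b was higher as well. Of 123 cell cycle RNAs Cdkn1b, the inhibitor p27 (−0.32, SE 0.13), and Ccnb2, cyclin B2 (−0.42, SE 0.19), were lower and 0 higher (5 lower and 0 higher with the replicate block). This list was itself higher in the Pkp4 cUTR line, by a median of 0.25 in Ps and 0.29 in CB, which left a median log2(Diff FC) of −0.02. No RNA was called among the glycolytic, cholesterol, interferon and histone lists of 21, 31, 51 and 20 RNAs, whose medians lay between −0.04 and 0.02, and with the replicate block Acaca of the cholesterol list was called (higher).

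Lists of nuclear regulators held calls at low levels for the most part. The share called was 3.01% for zinc finger, 1.13% for chromatin and 1.09% for DNA repair genes. It was 2.09% for Gm and 3.42% for RIKEN names. Over all RNAs it was 2.33%, and with the replicate block 3.06% were higher and 2.18% lower. Of 266 zinc finger genes named Zfp, Zscan or Zkscan, 6 were higher (Zfp39, Zfp62, Zfp874a, Zfp940, Zfp948 and Zfp595) and 2 lower (Zfp664 and Zfp239), with a median of 0.06, and with the replicate block 9 were higher and 3 lower. All 6 higher ones had a mean log2 CPM below 1, and their values ran from 0.73 for Zfp940 (SE 0.28) to 1.58 for Zfp874a (SE 0.55). Of 177 chromatin genes Hdac10 (0.21, SE 0.09) and Jmjd1c (0.50, SE 0.22) were higher and none lower. Of 92 DNA repair genes Polk, at a mean log2 CPM below 1, was higher (0.56, SE 0.25). These lists had 7 and 3 higher RNAs and 0 lower with the replicate block. The Anp32 family, whose 3 members had values of −0.09 (Anp32e), −0.14 (Anp32a) and −0.30 (Anp32b), had no call, with Anp32b at an unadjusted p = 0.0629 (limma) and at 0.00208 with the replicate block. Genes known by a serial name were also counted. Of 911 named Gm, 3 were higher and 16 lower, and of 585 with RIKEN names 12 were higher and 8 lower. These counts were 4 and 22, and 12 and 16, with the replicate block, and 24 and 21, and 13 and 5, without replicate 4 of every group. Over all 12900 RNAs that last fit gave 327 higher and 145 lower. The 112 ribosomal protein pseudogenes, whose reads cannot be told from those of their parent genes, had no call (1, lower, with the replicate block) and medians of 0.07, 0.80, −0.22 and −0.87 in the replicate numbers.

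Calls were also counted by the length of the RNA. Over all RNAs 1.36% were higher and 0.961% lower, or 3.06% and 2.18% with the replicate block. The 12743 RNAs (98.8%) found in the annotation were divided into 10 classes by the length of their longest transcript. In the class of the shortest, with a median of 649 bases, 4 RNAs were higher and 15 lower and the median log2(Diff FC) was −0.05. In the class of the longest, with a median of 7996 bases, 39 were higher and 4 lower and the median was 0.05. With the replicate block the counts were 4 and 30 against 93 and 15. Without replicate 4 of every group they were 25 and 16 against 71 and 6, and both medians were 0.04. Over all 12900 RNAs that fit gave 327 higher and 145 lower. The medians rose along the 10 classes without a step back, but by replicate number the longest class had 0.20, −0.03, −0.02 and 0.05 and the shortest −0.21, 0.18, 0.15 and −0.31, so the difference between them was not of 1 sign. Among protein-coding RNAs with a mean log2 CPM above 1, 5 were higher and 7 lower in the shortest class and 31 higher and 2 lower in the longest.

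Of the GC classes, calls were most frequent in the lowest. The class with the lowest GC, a median of 39.91%, had 46 higher and 17 lower RNAs, 4.94% of it, against 2.33% of all RNAs. The class with the highest GC, a median of 59.71%, had 16 higher and 4 lower, 1.57% of it. The replicate block gave these classes 97 and 48, and 55 and 13, against 3.06% higher and 2.18% lower over all RNAs. Median log2(Diff FC) was 0.04 and 0.05 in these, and lay between −0.03 and 0.03 in the classes between. In the lowest GC class it was 0.07, 0.11, 0.18 and −0.18 in the replicate numbers and 0.10 without replicate 4 of every group, and in the highest GC class it was 0.01, 0.03, 0.11 and 0.09. Of the gene types, protein-coding RNAs had 160 higher and 99 lower of 11340, processed pseudogenes 0 and 7 of 595, lincRNAs 2 and 5 of 203, and antisense RNAs 1 and 4 of 237. In this order the share called was 2.28%, 1.18%, 3.45% and 2.11%. In the fit with the replicate block the counts were 378 and 243, 1 and 10, 4 and 5, and 0 and 5. Without replicate 4 of every group processed pseudogenes had 19 higher and 12 lower of 595, against 327 and 145 of all 12900 RNAs. By level, the lowest class had 23 higher and 23 lower RNAs at a median SE of 0.56, and the highest class had 0 higher and 7 lower at a median SE of 0.12. These counts were 15 and 23, and 26 and 29, with the replicate block.

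**Figure D5:**
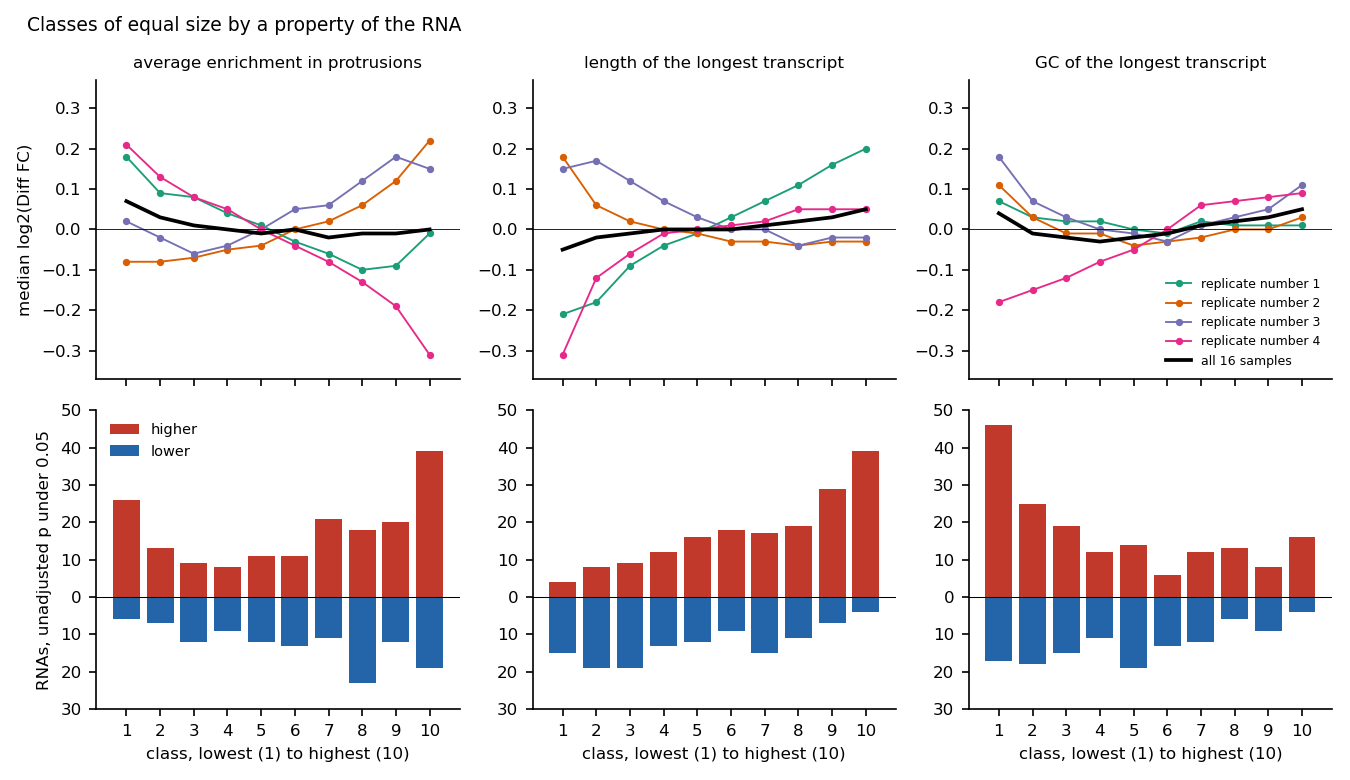
Median log2(Diff FC) (top, black for all 16 samples and coloured by replicate number) and the number of RNAs with an unadjusted p under 0.05 (bottom, higher above and lower below the line) in 10 classes of equal size by average enrichment, transcript length and GC content. Calls lie mostly above the line in the class of the longest transcripts (39 against 4) and of the lowest GC (46 against 17), while the medians of the replicate numbers differ in sign at both ends of the enrichment and length scales.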

How the data were processed

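RNA-Seq of total RNA from Ps and CB of HBB and Pkp4 cUTR cells gave 16 samples, 4 per group, which were assigned by the line, fraction and replicate number in their labels and column names. Per the labels, bcl2fastq 1.8.4, STAR 2.4.2a, limma 3.26.1 and the mm10 build were used. The authors counted reads per gene and deposited limma-voom log2 CPM for 12900 RNAs, in which 0.5 is added to the reads of a gene and the sum is expressed per 1000000 reads of a scaled library size. No column of sample values was left without a sample. A library kit that keeps strand was used, but how reads on overlapping genes or near-identical copies were assigned is not given in the sources used here, and such genes are uncertain.

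All values (100%) gave whole reads within 0.01. These reads and the deposited library sizes entered limma-voom (limma 3.58.1, R 4.3.3) with precision weights, 1 mean per group and the interaction contrast, and p-values are from moderated two-sided tests, adjusted by the Benjamini-Hochberg method over all 12900 RNAs. Called means an unadjusted p under 0.05 for log2(Diff FC). The study calls the replicates independent, without saying whether they were separate cultures, and p-values measure the spread between these samples. No pair of replicates agreed within counting noise. The fit was tested on simulated data.

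The members, lists and tests were chosen with earlier results of these data known. RNAs were named by rule: Pkp4 and 6 reference RNAs, the 12 RNAs with the smallest p in each direction at a mean log2 CPM above 1, and in each list up to 4 called members at that level, or 2 with the smallest p where none was called. Other members are named where a list held few calls, after their values were seen. Lists were built from gene name patterns, so a list can hold a gene of like name and other function, and Rb1cc1 was taken out of the cell cycle list for that reason. The results of 1 of the 45 lists are not reported here. The study's APC-dependent list came from its supplementary data, for its names only. Positions, lengths and GC are from GENCODE vM21, in which 12743 RNAs (98.8%) were matched, 444 of them by an older symbol.

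The replicate numbers come from the labels. Deviations from group means correlated between same-numbered samples of the lines by 0.196 to 0.392 in Ps and 0.331 to 0.628 in CB, and each of the 16 samples correlated best with its own number in the other line. The numbers therefore pair the lines within a fraction. Ps and CB of 1 line were not paired in this way (mean 0.178 in HBB and −0.161 in Pkp4 cUTR cells). A value within a replicate number still subtracts CB from Ps of that number, so that match is by label only. The fit without a block follows the study's method. Alternatives were fits without precision weights, with sample quality weights, other scalings, log2(CPM + 1), filters on low levels, both kinds of block, robust moderation, each sample left out, and replicate 4 left out. The combination of the block with replicate 4 left out, and the classes of length, GC and level, were added after the data had been seen.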

Additional observations from a re-analysis of the deposited data

Results flagged for a closer look

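Among the 30 RNAs of the plot of intervals, 120 groups of 4 samples were searched for a sample lying apart from the other 3 by Dixon's criterion at the 95% level, which chance gives in about 1 of 20 groups, and 4 were found. Xylb was at 2.12 log2 CPM in replicate 3 of the Pkp4 cUTR CB and at 1.71 to 1.77 log2 CPM in the others. Ndfip2 was at 4.31 log2 CPM in the same sample, against 4.44 to 4.46 log2 CPM. Fam60a was at 0.64 log2 CPM in replicate 4 of the HBB CB and at 1.13 to 1.22 log2 CPM in the others. Dcaf5 was at 5.34 log2 CPM in that sample, against 5.56 to 5.58 log2 CPM. All 4 RNAs, which had been chosen for a small p in these samples, kept an unadjusted p under 0.05 from limma without the sample concerned.

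Eml4 was the RNA whose enrichment differed between the lines by a test of the difference itself, with an adjusted p = 0.0389 from limma when the replicate number was a block in each fraction. Without a block its adjusted p was 0.9997, and with the block and without replicate 4 it was 0.0173 (all groups) or 0.00837 (CB groups).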

How the results depend on the processing

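The count of RNAs past an adjusted p under 0.05 for log2(Diff FC) was 0 in limma in every fit without a block in each fraction, including each of the 16 with 1 sample left out, and the smallest adjusted p reached 0.241 with quality weights and 0.165 without replicate 4 of the CB groups. With the replicate block in each fraction it was 1, also without replicate 4 of all groups and of the CB groups, and the RNA was Eml4 each time. The number of higher RNAs at an unadjusted p under 0.05, 176, was 463 with sample quality weights, 97 with scaling to total reads, 100 at a mean log2 CPM above 2, 395 with the block, 337 without replicate 4 of the CB groups, 327 without replicate 4 of all groups, and 576 and 562 with the block and these left out. Leaving out 1 sample gave 108 to 316, and those that moved it by over 1.5 times were HBB Ps 3 (113), HBB CB 1 (108), HBB CB 4 (293), Pkp4 cUTR Ps 1 (316) and Pkp4 cUTR Ps 2 (117). The number of lower RNAs, 124, was 78 at a mean log2 CPM above 2, 281 with the block, and 232 and 284 with the block and without replicate 4 of the CB or all groups, and was 98 to 175 with 1 sample left out. RNAs that differed between the lines in Ps, 923, numbered 2338 with the block and 2536 and 1843 with the block and without replicate 4 of the CB or all groups, and 545 to 1136 with 1 sample left out (545 without HBB Ps 1, 594 without HBB Ps 4 and 580 without Pkp4 cUTR Ps 2). In CB, 1157 became 1817 with quality weights, 2765 with the block, 768 and 757 without replicate 4 of the CB or all groups, and 691 to 1296 with 1 sample left out (691 without HBB CB 3). The causes were not tested.

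Of 71 named RNAs that were called, 34 were called under all 32 alternatives and none turned in direction. The 71 passed a threshold in these same samples, which every alternative fits again, so this is not an independent check. Among 37 named RNAs that were not called, Ddr2 turned to −0.01 without HBB CB 1 or HBB CB 2 and to −0.03 without Pkp4 cUTR CB 4 (range −0.03 to 0.12). Cyb5r3 turned to 0.01 without HBB Ps 3 (range −0.26 to 0.01). Medians of lists and classes moved by over 1 SD between the replicate numbers in 37 of 1848 values. With the numbers as a block within each line, pairing Ps with CB, 150 RNAs were higher and 117 lower. Intervals cover the spread between samples, and RNAs below a mean log2 CPM of 1 are too poorly measured for a change under 2-fold to be detectable in many of them.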

Other observations

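In the fit with the replicate number as a block in each fraction, 3.06% of all RNAs were higher and 2.18% lower, against 1.36% and 0.961% without it, so the lists below also hold more calls. These RNAs were looked up after their values were seen. Among 52 integrin and focal adhesion RNAs 5 were then higher, Itgb7, Itgb1, Itga3, Itga5 and Itgav, and 1 was lower. Itgb1, the subunit shared by most fibronectin and collagen receptors, had a log2(Diff FC) of 0.19 (SE 0.16 and unadjusted p = 0.245 without the block, unadjusted p = 0.013 with it, limma). Of 177 chromatin RNAs 7 were higher and 0 lower, and of 118 growth factor and receptor RNAs 7 were higher and 3 lower. The nuclear export receptor Xpo1 had a log2(Diff FC) of 0.42 (SE 0.20 and unadjusted p = 0.0506 without the block, unadjusted p = 0.00316 with it, limma), with a difference between the lines of 0.61 in Ps and 0.19 in CB. The import receptor Kpna2 had −0.25 (SE 0.16 and unadjusted p = 0.134 without the block, unadjusted p = 0.0283 with it, limma), with 0.22 in Ps and 0.47 in CB.

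Neat1, a noncoding RNA of nuclear paraspeckles and like Malat1 a marker of cell bodies, had a log2(Diff FC) of 0.27 (SE 0.22 and unadjusted p = 0.24 without the block, unadjusted p = 0.0209 with it, limma). As for Malat1 the difference between the lines was larger in CB (−0.40) than in Ps (−0.13).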
